A study of Mus musculus with 12 samples.

Results

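The data described here set cells labelled as lacking both Gna12 and Gna13 against cells labelled as lacking Gna12 alone. By label they address the loss of Gna13 on top of Gna12. They cover 6 of the 12 arrays of the study, 3 per genotype, and 18193 genes, each read from its brightest probe set annotated to 1 gene. The cells were type II alveolar epithelial cells, which make the surfactant of the lung, isolated from mouse lungs and grown without treatment for 7 days on collagen in a bronchial epithelial medium that held keratinocyte growth factor and no hydrocortisone. The study compared single with double knockout animals, and its other 6 arrays came from Gna11 knockout and Gnaq/Gna11 double knockout cells. All 6 arrays described here lacked Gna12, and no group with intact Gna12 in the same background was analysed here. How Gna13 was deleted, in which cells, at what age the mice were used and whether animals were pooled is not stated in the labels. Nothing in them ties the 3 samples of a genotype to separate animals or cultures either, so p-values measure only the spread between samples, which may be technical. A letter in the position code of the labels is B to D for the single and E to G for the double knockout arrays, and it cannot be told apart from genotype.

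Gna12 and Gna13 encode the alpha subunits of G12 and G13, which are heterotrimeric G proteins. Receptors for lysophosphatidic acid, sphingosine-1-phosphate, thrombin and thromboxane activate both, and the activated subunits act on myosin and actin. Actin assembly then releases the coactivators MRTF and YAP/TAZ to the transcription factors SRF and TEAD. The subunits overlap in function, yet mice lacking Gna13 alone die as embryos while mice lacking Gna12 alone live.

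Values are log2 expression values, and differences are Gna12/Gna13 minus Gna12, so a difference of 1 is a doubling. Each 95% interval and p-value comes from a limma model over all 12 arrays, with Benjamini-Hochberg adjustment over all genes, and "called" means an adjusted p under 0.05. Arrays ran from 2.13 to 14.1, and their number limits the precision. The markers of the labelled cell type were bright in all 6 arrays, with the surfactant genes Sftpc at 12.78 to 13.27 and Sftpd at 13.28 to 13.42. Some markers of other cells were bright as well, among them Ager of type I cells at 13.18 to 13.47, Scgb1a1 of airway club cells at 13.12 to 13.28 and Chil3 of macrophages at 12.83 to 13.07. Levels varied widely within each list. The type I marker Rtkn2 read 4.75 to 7.31, the macrophage marker Siglecf 5.22 to 6.88 and the type II marker Nkx2-1 5.31 to 5.72. Whether the cultures held other cells was not tested, and fewer cells of a type and less RNA per cell cannot be told apart. The lowest correlation within a group was 0.980 in both groups, and between the groups correlations ran from 0.980 to 0.987. Replicate 1 of the double knockout stood apart in macrophage genes, with a mean over 17 markers of 9.22, against 10.43 and 10.48 in its other replicates and 9.89 to 10.39 in the single knockout.

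The targeted gene Gna13 had a lower mean in the double than in the single knockout at all 7 of its probe sets, but only 1 of them was separated clearly. That probe set, 1453470_a_at, read 8.69, 8.38 and 8.04 in the Gna12 arrays and 6.17, 7.61 and 7.76 in the Gna12/Gna13 arrays. Every double knockout array lay below every single knockout array, and replicate 1 was the lowest. The difference was -1.19 (95% interval -2.00 to -0.38). Its exact two-sided permutation p was 0.1, the smallest that 3 arrays against 3 allow, and against all 9 other arrays it was -1.04 (exact permutation p = 0.00455, the smallest possible, adjusted p = 0.0318 over the 7 probe sets). Against the same 9 arrays the other 6 probe sets differed by -0.40 to 0.07, with adjusted permutation p-values of 0.180 to 0.836 that did not pass. Without replicate 1 of the double knockout the difference was -0.68.

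The brightest Gna13 probe set, 1422555_s_at, which represents the gene in all counts here, read 12.08, 12.31 and 12.07 in Gna12 cells and 12.08, 11.92 and 12.03 in Gna12/Gna13 cells. These groups overlapped, and the difference of -0.14 (95% interval -0.34 to 0.06) was bounded well within 2-fold in cells labelled as lacking the gene. The remaining 5 probe sets differed by -0.53 to -0.19, and all of their intervals included 0. The sources used here do not show where the deleted part of Gna13 lies relative to its probe sets, and one outside it is no check. A narrow bound on a probe set therefore limits the measured signal, not the amount of working protein. Gna12, absent from both groups by label, served as the control of this reading: its brightest probe set read 6.95, 7.15 and 6.90 against 6.89, 7.02 and 6.64, and its 5 probe sets differed by -0.15 to 0.01.

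**Figure D1:**
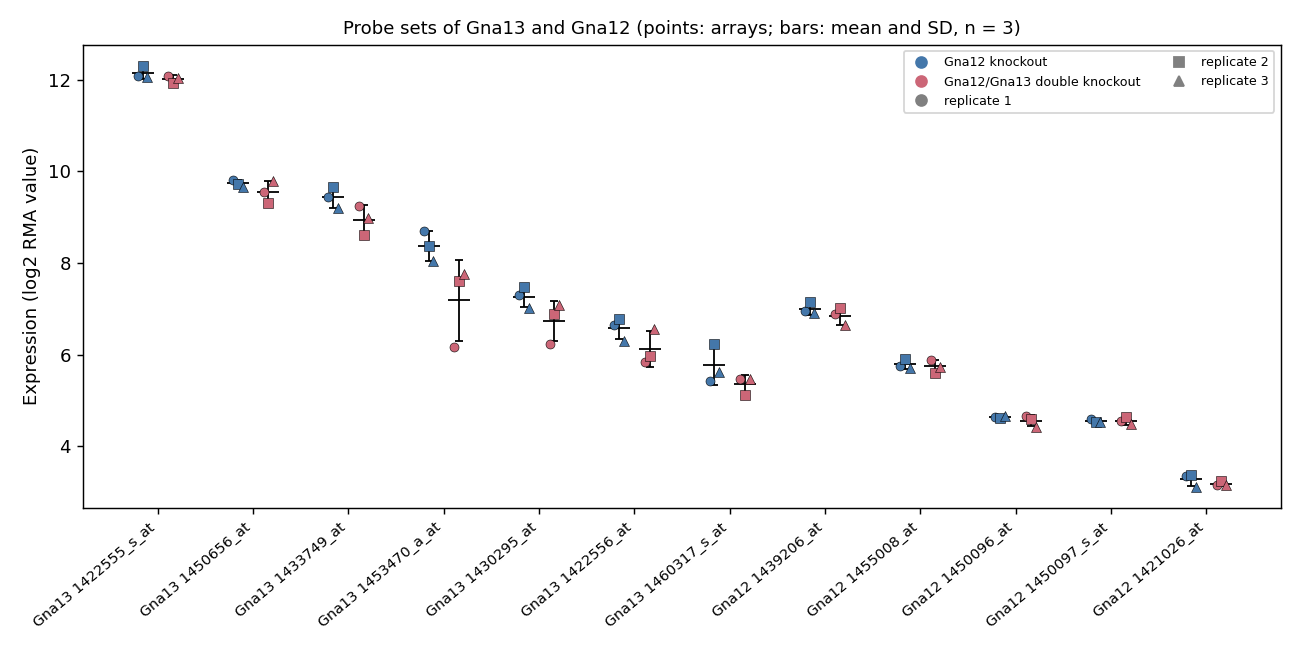
Log2 expression (vertical axis) of the 7 probe sets of Gna13 and the 5 of Gna12, with 1 point per array, blue for Gna12 knockout and red for Gna12/Gna13 double knockout, and bars for the mean and SD of 3 arrays. At 1453470_a_at the double knockout arrays at 6.17, 7.61 and 7.76 lie below all single knockout arrays, while at the brightest probe set, 1422555_s_at, the groups overlap.

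Across all genes no difference passed. Of 18193 genes, limma called 0 (0%), and the lowest adjusted p was 0.128. An unadjusted p under 0.05 was found for 820 genes (4.51%). Of these, 535 (2.94%) were higher and 285 (1.57%) lower in Gna12/Gna13 cells. All 3 double knockout arrays lay above all 3 single knockout arrays for 1164 genes (6.4%) and below them for 890 (4.89%). At the median standard error of 0.192, a gene would have needed a log2 difference of 1.66 to be the only one called, so a lone doubled gene would not have passed at that precision. Leaving out 1 array called between 0 and 3 genes. Without replicate 1 of the Gna12 arrays Lrmda was called, which read 9.06, 6.58 and 6.66 in Gna12 and 9.22, 9.27 and 9.29 in Gna12/Gna13 cells. Without replicate 3 of the Gna12 arrays H2-Q10, Il1f9 and Stfa2l1 were called, without replicate 1 of the double knockout Slamf8, and without its replicate 2 the unnamed gene 2010109A12Rik. None of these 6 passed with all arrays, nor in a fit with another array left out.

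The bounds on the differences were tighter than the lack of calls alone shows. Equivalence was tested with a pair of one-sided moderated tests against log2 differences of -1 and 1, and 15714 genes (86.4%) were bounded within 2-fold at an adjusted p under 0.05. Within 1.5-fold, 9407 genes (51.7%) were bounded. These tests are less strict than a 95% interval, so a bounded gene can have an interval that reaches beyond 2-fold. The 95% interval lay within 2-fold for 14891 genes (81.9%). The median absolute difference was 0.12, and 126 genes differed by at least 1 in their point estimate. Dim probe sets have narrow intervals in part because array values are compressed near the background, so the brighter genes give the fairer figure. Of 12032 genes at or above the median level of 5.10, 9863 (82.0%) were bounded within 2-fold and 4537 (37.7%) within 1.5-fold. The 95% interval lay within 2-fold for 9135 (75.9%) of the 12032. Values are compressed near the top of the range as well, and the tight interval of actin Actb, -0.07 to 0.07 at a level near 13.2, bounds its signal only.

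**Figure D2:**
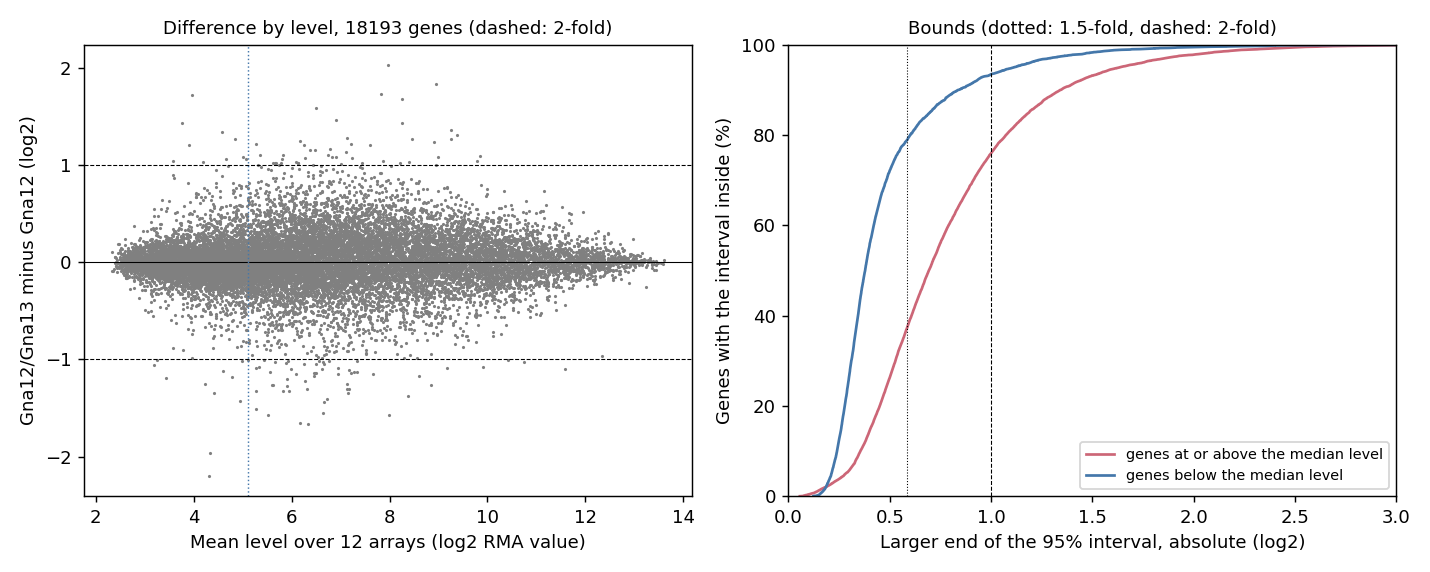
Left, the log2 difference of each of 18193 genes (vertical axis) against its mean level over 12 arrays (horizontal axis, log2), with dashed lines at 2-fold and a dotted line at the median level of 5.10. Right, the percentage of genes (vertical axis) whose 95% interval lies within the log2 distance from 0 on the horizontal axis, for genes at or above the median level (red) and below it (blue); at 2-fold the curves stand at 75.9% and 93.4%.

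The receptors that couple to G12 and G13 came first in the pathway, and none of the 16 measured passed. Their median difference was -0.09, beside a median of 0.00 over all genes, and 14 of the 16 were bounded within 2-fold. Only 11 of the 16 were of at least median level, and the dim ones are bounded in signal only. The sphingosine-1-phosphate receptor S1pr3 read 9.26, 9.89 and 10.26 in Gna12 cells and 9.95, 8.88 and 9.34 in Gna12/Gna13 cells. Its groups overlapped, and its difference of -0.41 (95% interval -1.29 to 0.47) was not bounded. S1pr2, the sphingosine-1-phosphate receptor best known for coupling to G12/13, lay at 8.30 to 9.23 against 8.88 to 9.17, a bounded difference of 0.27 (95% interval -0.36 to 0.90). Among lysophosphatidic acid receptors Lpar3 stood at 7.67, 7.72 and 7.27 against 7.95, 8.43 and 7.70, and Lpar6 at 7.03, 6.96 and 6.51 against 6.26, 6.35 and 6.62. Their differences of 0.47 and -0.42 had opposite signs, and both intervals included 0. The bradykinin receptor Bdkrb2 had the widest difference of the list, -1.03 (95% interval -2.20 to 0.14), but its arrays spread from 5.13 to 7.67 within the Gna12 group. The thrombin receptor F2r read 2.84 to 3.17 in all 6 arrays, a level at which little can be measured.

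The other G protein subunits, through which the same receptors could also signal, were examined as possible partners. None of 21 passed, 16 were bounded within 2-fold, and their median difference was -0.03. Gnaq, the alpha subunit of Gq, read 9.84, 10.20 and 10.19 in Gna12 cells and 9.97, 9.84 and 9.74 in Gna12/Gna13 cells. Its groups overlapped, with a difference of -0.22 (95% interval -0.54 to 0.09). Gnas, the alpha subunit of Gs, was among the most tightly held, at 11.61 to 11.67 against 11.61 to 11.64. Its difference of -0.03 had an interval from -0.15 to 0.10. The inhibitory subunit Gnai2 differed by -0.12 (95% interval -0.41 to 0.16) and Gnai3 by 0.31 (95% interval -0.31 to 0.94), so both were bounded within 2-fold. Gna11 was not bounded, at 0.14 (95% interval -1.03 to 1.30). Gng10, a gamma subunit, was the only one of the 21 whose arrays did not overlap, at 5.28, 5.24 and 5.23 against 5.39, 5.52 and 5.90, and 6.4% of all genes separated in this direction.

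The SRF, MRTF and actin genes, which read out actin assembly, had a median difference of -0.01, and of 0.02 with each gene averaged over its probe sets. Of 22 measured, 20 were bounded within 2-fold, and the exceptions were Cnn1 and Acta2. Cnn1, a smooth muscle calponin, read 8.38, 7.27 and 7.26 in Gna12 cells and 6.88, 7.06 and 6.41 in Gna12/Gna13 cells. The groups did not overlap, but replicate 1 of the single knockout stood more than 1 unit above the others, and the difference of -0.85 (95% interval -1.65 to -0.06) did not pass and was -0.48 without that array. Zyx, a focal adhesion gene, differed by -0.37 and Mrtfa, a coactivator of SRF, by -0.39, and both were bounded.

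SRF binds a short element called the CArG box, which was searched for in promoters. In RefSeq promoters of build GRCm38.p6, from 250 bases before to 50 bases after the start of the gene, a box was found in 229 of 14452 measured genes (1.58%), and in 7 of the 19 SRF list genes with a promoter in the table. Both strands were read, and a match is a description of letters only. The windows below lie upstream of the start of 4 of those 7 genes and are written 5′ to 3′ on the gene's strand, with the boxes in capitals. They are chr11:120348552-120348609 on the minus strand for Actg1, chr17:46556211-46556268 on the minus strand for Srf, chr14:20929148-20929204 on the plus strand for Vcl and chr10:79988520-79988577 on the plus strand for Cnn2.
Actg1: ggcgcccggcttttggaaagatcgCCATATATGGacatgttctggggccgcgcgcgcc
Srf: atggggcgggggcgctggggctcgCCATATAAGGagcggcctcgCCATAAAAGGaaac
Vcl: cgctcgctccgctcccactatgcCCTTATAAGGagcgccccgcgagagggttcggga
Cnn2: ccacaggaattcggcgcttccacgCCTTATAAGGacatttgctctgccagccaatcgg

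The genes with these boxes were not set apart between the genotypes. Cytoplasmic actin Actg1 read 12.11, 12.21 and 12.25 in Gna12 cells and 12.26, 12.22 and 12.26 in Gna12/Gna13 cells, a difference of 0.05 (95% interval -0.06 to 0.16). Srf itself, which has a pair of boxes in the window, read 10.89, 10.98 and 10.90 against 10.99, 10.85 and 10.43. Its groups overlapped, and its difference was -0.17 (95% interval -0.54 to 0.20). Calponin Cnn2 differed by -0.15 (95% interval -0.50 to 0.19) and vinculin, Vcl, by 0.36 (95% interval -0.33 to 1.06). Srf and Vcl were named for their promoters after their values had been seen. Over all 229 genes with a box the median difference was -0.01, beside 0.00 for the promoters without one, and 195 (85.2%) were bounded within 2-fold. The TEAD element, searched as GGAATG on both strands, was in 2212 of the 14452 genes (15.3%) and in 11 of 15 YAP/TAZ list genes with a promoter. Its 2212 genes had a median of -0.01, and 1883 (85.1%) were bounded.

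The YAP, TAZ and TEAD genes and their targets were less tightly bounded, 13 of 21, with a median of -0.06. The bright target Ccn1, a matricellular protein, read 12.63, 12.81 and 12.93 against 12.93, 12.56 and 12.24 and differed by -0.21 (95% interval -0.51 to 0.08). Gadd45b, a stress gene, had the only unadjusted p under 0.05, at a difference of -0.12 (95% interval -0.245 to -0.003). Wwtr1, which encodes TAZ, read 8.88, 8.58 and 8.999 against 8.58, 8.37 and 8.37, touching at 8.58, a difference of -0.38 (95% interval -0.87 to 0.11). Without replicate 1 of the double knockout the median of the list was -0.27, and without its replicate 2 it was 0.03.

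Epithelial cells can activate TGF-beta through the integrin alpha v beta 6, and the genes of TGF-beta activation and signalling were read for that reason. None of 23 passed or had an unadjusted p under 0.05, and 20 were bounded. Itgav, the alpha v chain, read 11.43, 11.59 and 11.60 against 11.74, 11.54 and 11.28, a difference of -0.02 (95% interval -0.28 to 0.23). Itgb6, the beta 6 chain, which was singled out after its values were seen, spread from 9.35 to 10.02 and from 8.99 to 10.00 and differed by -0.26 (95% interval -1.12 to 0.60). Thbs1, a secreted activator of TGF-beta, differed by -0.34 and Ltbp2, a matrix protein of the latent TGF-beta binding family, by -0.59, with intervals that included 0.

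Over the lists of receptors, other G proteins, SRF and actin, YAP/TAZ and TGF-beta genes together, 103 genes were measured. None was called, and 2 (Cnn1 and Gadd45b, both lower in Gna12/Gna13 cells) had an unadjusted p under 0.05. Of the 103, 83 (80.6%) were bounded within 2-fold. The share bounded was near the 82.0% of all genes of at least median level and below the 86.4% of all genes. Of the 103, 86 were of at least median level.

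Junction and matrix genes, which can respond to the tension of the actin cortex, had no calls either. Of 16 cadherin and junction genes, 14 lay above 0 (9080 of all 18193 genes did), with a median of 0.16, and 14 were bounded. Beta-catenin, Ctnnb1, read 11.62, 11.61 and 11.76 in Gna12 cells and 11.85, 11.87 and 11.98 in Gna12/Gna13 cells, so the groups did not overlap. The difference was 0.24 (95% interval 0.07 to 0.41) and did not pass, and with Ctnnb1 averaged over its probe sets it was -0.06, so its direction depends on the probe set. E-cadherin, Cdh1, whose tail G12 and G13 alpha subunits can bind, read 10.42, 10.57 and 10.76 against 11.06, 10.80 and 10.53 and differed by 0.21 (95% interval -0.12 to 0.55). The median of the junction list was -0.01 in a fit that held the pan-leukocyte mean as a covariate. Of 14 matrix and adhesion genes 10 were bounded. Their median was -0.05, and it ran from -0.24 without replicate 2 of the single knockout to 0.13 without its replicate 3.

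Immediate early genes, which respond to SRF and to growth signals within minutes to hours, had a median difference of -0.06, which was 0.003 without replicate 3 of the single knockout. Of 20, 4 had every double knockout array below every single knockout array (4.89% of all genes did), and 2 had an unadjusted p under 0.05. The nuclear receptor Nr4a1 read 8.05, 8.41 and 7.73 against 7.45, 7.38 and 7.36, a difference of -0.67 (95% interval -1.22 to -0.12). Egr1, a zinc finger factor and SRF target, read 10.89, 11.25 and 11.11 against 10.81, 10.57 and 10.70, a difference of -0.39 (95% interval -0.78 to -0.01). The others without overlap were Egr2 and Fosl2, the second named after its values were seen. None passed over all genes, and Fos, the AP-1 subunit gene, differed by -0.07.

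Cytokine and proliferation genes had the highest shares bounded of the functional lists. Only 11 of the 16 cytokine and 13 of the 20 proliferation genes were of at least median level, however. The narrow intervals of the dim ones bound the signal only. Of 16 cytokine and NF-kB genes 15 were bounded, with Icam1, an adhesion receptor for leukocytes, at -0.03 (95% interval -0.22 to 0.16). All 20 proliferation genes were bounded, and for 17 of them the 95% interval also lay within 2-fold. Their median of 0.04 was -0.07 without replicate 2 and 0.15 without replicate 1 of the double knockout. Mki67, the gene of the Ki-67 antigen, read 7.99, 8.65 and 8.71 against 7.83, 8.88 and 8.50, a difference of -0.04 (95% interval -1.07 to 0.98).

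**Figure D3:**
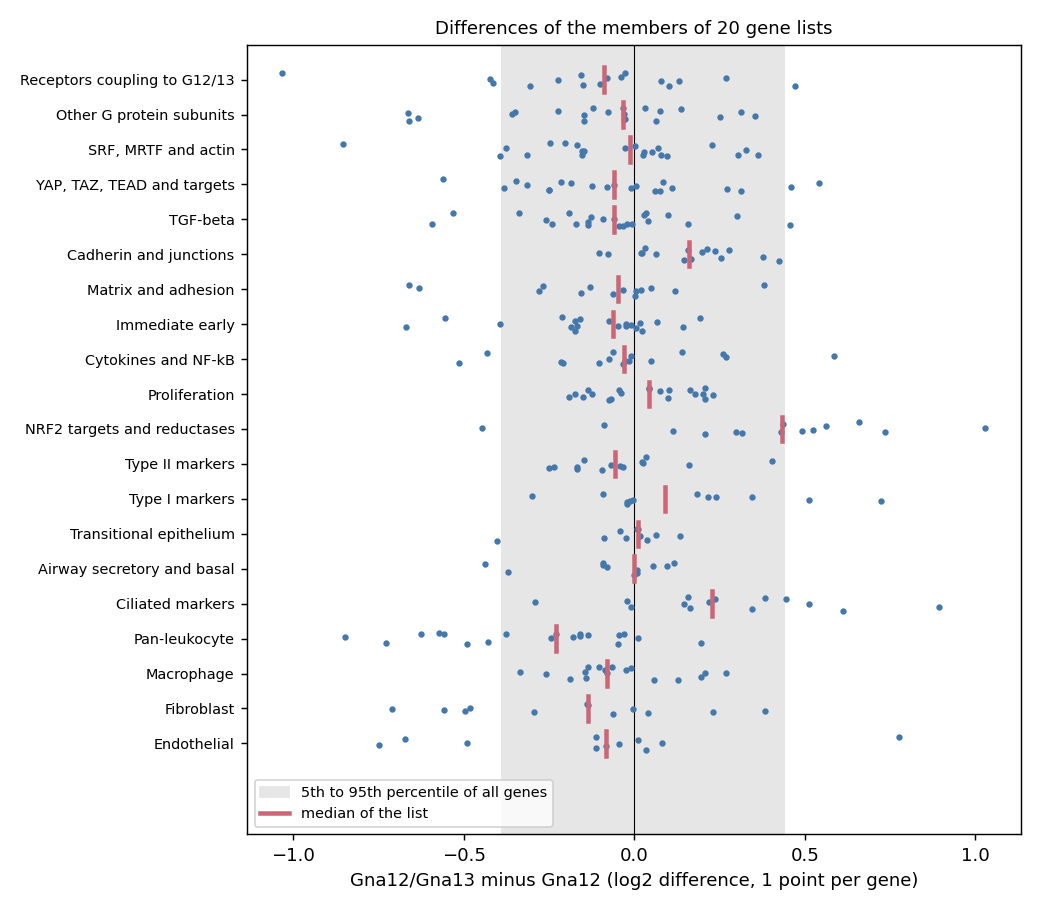
Log2 difference, Gna12/Gna13 minus Gna12 (horizontal axis), of each measured member of 20 gene lists (vertical axis), with 1 point per gene, a red bar at the median of each list and a grey band from the 5th to the 95th percentile of all genes. The medians of the receptor to YAP/TAZ lists lie between -0.09 and -0.01, while the NRF2 and reductase list has its median at 0.43.

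The list furthest from 0 was that of NRF2 targets and reductases, genes of glutathione synthesis and detoxification that the transcription factor NRF2 induces. None of its 14 genes was called, yet 12 lay above 0, with a median of 0.43 beside 0.01 for all genes of at least median level. With an unadjusted p under 0.05, 6 were higher in Gna12/Gna13 cells, where 2.94% of all genes were. Cbr1 and Gstp1 had been named by earlier results of these data. Without them the median was also 0.43, and 4 of 12 genes had an unadjusted p under 0.05. The list itself was chosen with those results known, so these values are no independent check.

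Cbr1, a carbonyl reductase, read 9.99, 10.00 and 10.01 in Gna12 cells and 10.47, 10.69 and 11.03 in Gna12/Gna13 cells. The groups lay well apart, with a difference of 0.73 (1.66-fold, 95% interval 0.42 to 1.04, limma adjusted p = 0.739). Nqo1, the quinone reductase most used as a readout of NRF2, read 8.57, 7.91 and 7.92 against 8.52, 9.36 and 9.59. Its groups overlapped by replicate 1 of each, and its difference was 1.03 (2.04-fold, 95% interval 0.17 to 1.89). Gclm, a subunit of the enzyme that starts glutathione synthesis, read 10.26, 10.18 and 9.97 against 10.54, 10.63 and 10.71, and did not overlap. Its difference was 0.49 (95% interval 0.07 to 0.92). The glutathione transferases Gstp1 and Gstm1 and the glutathione peroxidase Gpx2 differed by 0.30, 0.32 and 0.43, also without overlap. Slc7a11 and Taldo1 lay below 0, at -0.45 and -0.09.

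Averaged over the 14 genes, the NRF2 and reductase list stood at 10.15, 9.99 and 9.94 in the Gna12 arrays and 10.20, 10.41 and 10.60 in the Gna12/Gna13 arrays, and the narrowest gap was between both replicates 1. The pan-leukocyte mean of 19 genes was 9.88, 9.89 and 9.30 against 8.85, 9.62 and 9.71, and the 3' minus 5' difference of Gapdh, a sign of RNA quality, 3.07, 2.67 and 3.25 against 3.33, 2.99 and 3.11. With either of these as a covariate the median of the NRF2 list was 0.44 and 0.45. The count with an unadjusted p under 0.05 was less steady, at 2 without replicate 3 of the double knockout, 3 without its replicate 2 and 3 without replicate 3 of the single knockout.

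**Figure D4:**
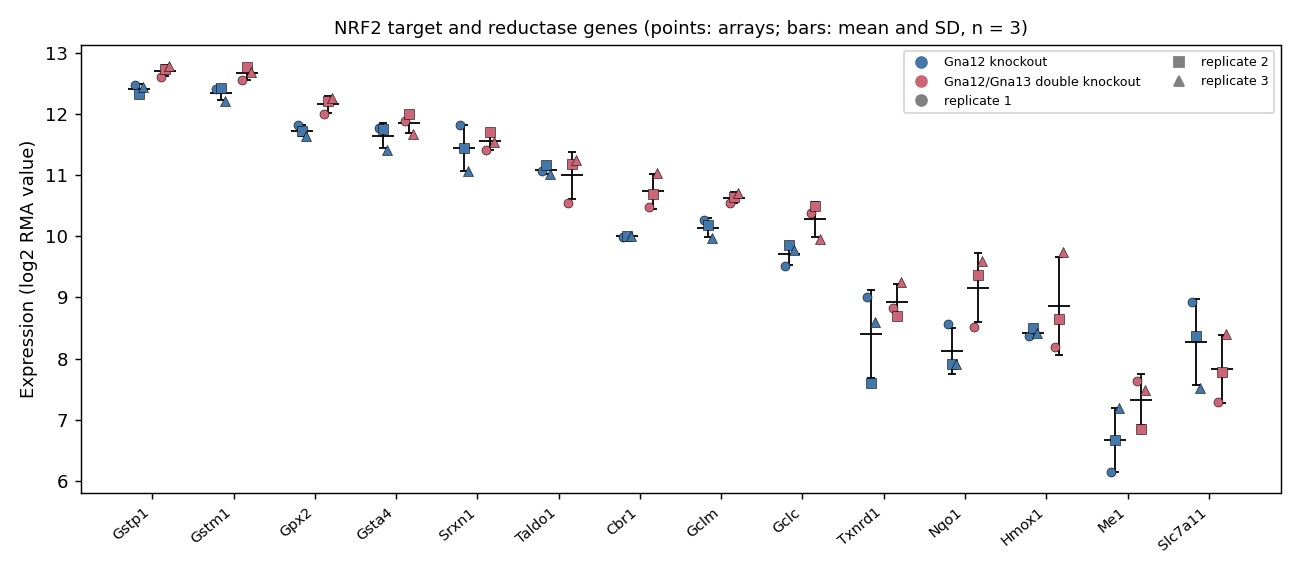
Log2 expression (vertical axis) of the 14 NRF2 target and reductase genes, with 1 point per array, blue for Gna12 knockout and red for Gna12/Gna13 double knockout, and bars for the mean and SD of 3 arrays. Cbr1 separates the groups by the widest margin relative to the Gna12 spread, at 9.99 to 10.01 against 10.47 to 11.03, and none of the 14 genes passed over all genes.

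Of the epithelial markers, type II genes differed little in signal. Surfactant genes Sftpc, Sftpa1 and Sftpd differed by 0.03, 0.03 and -0.03, and 13 of 14 type II genes were bounded. These surfactant genes, like Krt8 below, lie near the top of the range, where values are compressed and bound the signal only. Sftpb, which encodes surfactant protein B, read 12.04, 11.95 and 12.10 against 11.93, 11.64 and 11.78, without overlap, a difference of -0.25 (95% interval -0.43 to -0.07, limma unadjusted p = 0.0103) that did not pass. All 10 transitional epithelial markers were bounded, the keratin Krt8 at 0.01 (95% interval -0.06 to 0.08).

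Type I markers could hardly be bounded, with 4 of 12 within 2-fold. Their mean was 9.15, 8.64 and 10.12 in Gna12 cells and 9.91, 8.73 and 9.71 in Gna12/Gna13 cells, so replicate 2 was low in both groups and the spread within a group exceeded the median difference of 0.09. That median was -0.13 without replicate 2 and 0.59 without replicate 3 of the single knockout. The caveolin gene Cav1, for one, differed by 0.72 with an interval from -1.03 to 2.48. Replicate 2 of both groups was also low in the Y-linked gene Eif2s3y, at 3.30 and 3.07, where the other 4 arrays read 6.91 to 7.37. In a fit with Eif2s3y as a covariate the type I median lay between -0.13 and 0.59. The part of Eif2s3y in the type I values was not otherwise tested.

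Ciliated cell markers lay above 0 in 11 of 14, with a median of 0.23, which was 0.14 without replicate 3 of the single and 0.39 without replicate 3 of the double knockout. Rsph4a, of the radial spoke of the axoneme, read 10.65, 10.86 and 10.43 in Gna12 cells and 11.14, 11.28 and 10.87 in Gna12/Gna13 cells, just without overlap. Its difference was 0.45 (95% interval -0.001 to 0.89). The dynein gene Dnah9 and the axoneme assembly gene Ccdc39 had unadjusted p-values under 0.05, at 0.61 (95% interval 0.09 to 1.14) and 0.89 (95% interval 0.13 to 1.66), and both overlapped. With Ccdc39 averaged over its probe sets the difference was 0.41. Without replicate 1 of the single knockout no marker had one. The mean over the 14 genes was 8.53, 8.73 and 8.40 against 8.96, 8.94 and 8.57, and those groups overlapped too.

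Of 19 pan-leukocyte genes 17 were below 0, with a median of -0.23, and 10 were bounded. The median was 0.01 without replicate 1 of the double knockout and -0.51 without replicate 3 of the single knockout, and the array means of the list, given above, overlapped. Ptprc, which encodes the leukocyte antigen CD45, read 10.42, 10.22 and 9.63 against 9.07, 9.26 and 9.41, a difference of -0.85 (95% interval -1.50 to -0.19) with no overlap. Averaged over its probe sets it differed by -0.43. Was, an actin regulator of blood cells, differed by -0.73 (95% interval -1.43 to -0.03), and by -0.42 without replicate 1 of the double knockout. None of these differences passed. Macrophage genes had a median of -0.08, which was -0.29 without replicate 3 of the double knockout and 0.31 without its replicate 1. Fibroblast markers had a median of -0.14, which was 0.02 without replicate 1 of the double knockout and -0.39 over the brighter genes. Endothelial markers had a median of -0.08, which was -0.66 without replicate 3 of the double and 0.17 without replicate 3 of the single knockout. Of the fibroblast markers 7 of 12 were bounded, and of the endothelial markers 5 of 11.

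The 10 genes of smallest p in each direction, among those whose groups did not overlap and whose higher group had a mean of at least 5.10, are given as values, since none was called. Dnah7a, an axonemal dynein, led those higher in the double knockout, at 7.47, 7.38 and 7.12 against 8.50, 8.54 and 8.55. The double knockout arrays agreed closely, and the difference was 1.21 (2.31-fold, 95% interval 0.79 to 1.62, limma adjusted p = 0.433). Wdpcp, a gene needed to form cilia, read 9.22, 9.14 and 8.86 against 9.71, 10.58 and 10.63, a difference of 1.23 (2.35-fold, 95% interval 0.63 to 1.83). Cep19, which encodes a centrosomal protein that also serves in ciliogenesis, differed by 0.59, and Cibar1, of the ciliary base, by 0.98. The calcium channel gene Mcu of mitochondria read 4.78, 4.98 and 5.18 against 5.75, 5.86 and 5.67, a difference of 0.78, and it entered through its higher group alone. The others were Cbr1, Gstp1, Zfp324, the urate oxidase gene Uox and Pcbd1, with differences of 0.30 to 0.96. With each gene averaged over its probe sets, the differences were smaller for Wdpcp at 0.67, for Cibar1 at 0.48 and for Mcu at 0.40.

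Among those lower in the double knockout, Wdyhv1, an amidase of amino-terminal glutamine, came first, though it too entered through its higher group alone. Lix1, named after its value was seen, had a smaller p, but the mean of its higher group was 5.06. Wdyhv1 read 5.32, 5.66 and 6.24 against 4.33, 4.53 and 4.82, a difference of -1.18 (2.26-fold, 95% interval -1.65 to -0.71, limma adjusted p = 0.492), but with Wdyhv1 averaged over its probe sets the difference was only -0.20. The bright keratin gene Krt78 read 10.34, 10.65 and 10.63 against 10.00, 9.28 and 9.31, a difference of -1.01 (95% interval -1.48 to -0.53). Both separated the groups, Krt78 by the smaller margin. Phgdh, the first enzyme of serine synthesis, read 11.02, 11.36 and 10.92 against 10.29, 10.74 and 10.35 and differed by -0.64 (95% interval -0.97 to -0.32). The other genes were Wdr59, Fam20a, Stambp, Cdk16, Clec2l, Myh7 and Il18rap, from -1.55 to -0.53, and Phgdh, Wdr59 and Clec2l were bounded within 2-fold. Averaged over probe sets, Stambp differed by -0.68, Il18rap by -0.57 and Cdk16 by -0.03.

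Fam20a, which encodes a pseudokinase partner of a secretory kinase, is also the sixth measured gene from Gna13 on chromosome 11 in the RefSeq gene order. It read 8.96, 8.20 and 7.76 in Gna12 cells and 6.47, 6.46 and 7.33 in Gna12/Gna13 cells, with no overlap, and differed by -1.55 (2.93-fold, 95% interval -2.34 to -0.76). Of the 20 measured genes nearest to Gna13, 10 on each side, none was called, 15 lay below 0, and the median was -0.12. Slc16a6, a monocarboxylate transporter gene in the second position, read 7.63, 7.38 and 7.35 against 6.09, 7.16 and 7.10, without overlap, at -0.67 (95% interval -1.74 to 0.40). Cacng5 was the third gene without overlap, at a level under 4, so 3 of the 20 lay below in every array, beside 4.89% of all genes. The immediate neighbours Gm11696 and Amz2 differed by -0.12 and 0.19, and 17 of the 20 were bounded.

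The same contrast of double against single knockout was available in the other pair of genotypes, Gnaq/Gna11 against Gna11, which shares no arrays with this one. There limma called 335 genes (1.84%). The groups of that pair also differed in sample measures. The pan-leukocyte mean was 8.44, 8.19 and 8.81 in Gna11 cells and 9.21, 9.28 and 9.25 in Gnaq/Gna11 cells. The Gapdh difference was 4.03, 3.61 and 3.46 against 3.01, 3.26 and 3.15. Eif2s3y read 7.11, 3.555 and 7.00 against 3.54, 3.325 and 3.44. The part of these measures in the calls of that pair was not tested. Of those 335, 263 (78.5%) were bounded within 2-fold between Gna12/Gna13 and Gna12 cells, beside 82.0% of all genes of at least median level. An unadjusted p under 0.05 was found for 39 of them (11.6%, beside 4.51% of all genes), of which 29 were higher (8.66%, beside 2.94%). Both contrasts use 1 estimate of the spread of each gene. The difference between the pairs was tested in the model and passed for 13 genes (0.0715%), all of them among the 335. In the Gna12 pair, 12 of the 13 were bounded within 2-fold.

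The chemokine Ccl17, which attracts T helper cells, read 12.74, 12.72 and 12.67 in Gna12 cells and 12.42, 12.49 and 13.00 in Gna12/Gna13 cells. Its difference of -0.07 (95% interval -0.42 to 0.28) was set against 2.23 in the Gnaq/Gna11 pair, and the difference between the pairs was -2.30 (SE 0.224, limma adjusted p = 0.00886). The chemokine Ccl22 and the chemokine receptor Ccr7 behaved alike, at -0.07 and 0.03 here against 3.01 and 3.19 there. The detoxifying enzyme genes Gstm2 and Pon1 differed by 0.18 and 0.40 here against -1.31 and -2.11 there. The exception to the bound was the carboxylesterase Ces1g, at 8.14, 7.07 and 7.71 in Gna12 and 8.36, 10.62 and 10.02 in Gna12/Gna13 cells. It did not overlap, and its 2.03 (4.07-fold, 95% interval 0.72 to 3.33) was the highest difference of all genes, though not called, while it was -3.65 in the other pair. The 13 genes became 0 without replicate 2 of the Gna12 arrays and 6 without its replicate 1. They became 7, 4 and 28 without replicates 1, 2 and 3 of the double knockout. In fits with a covariate, 1 gene passed for the pan-leukocyte mean, 0 for the Gapdh difference and 9 for Eif2s3y.

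**Figure D5:**
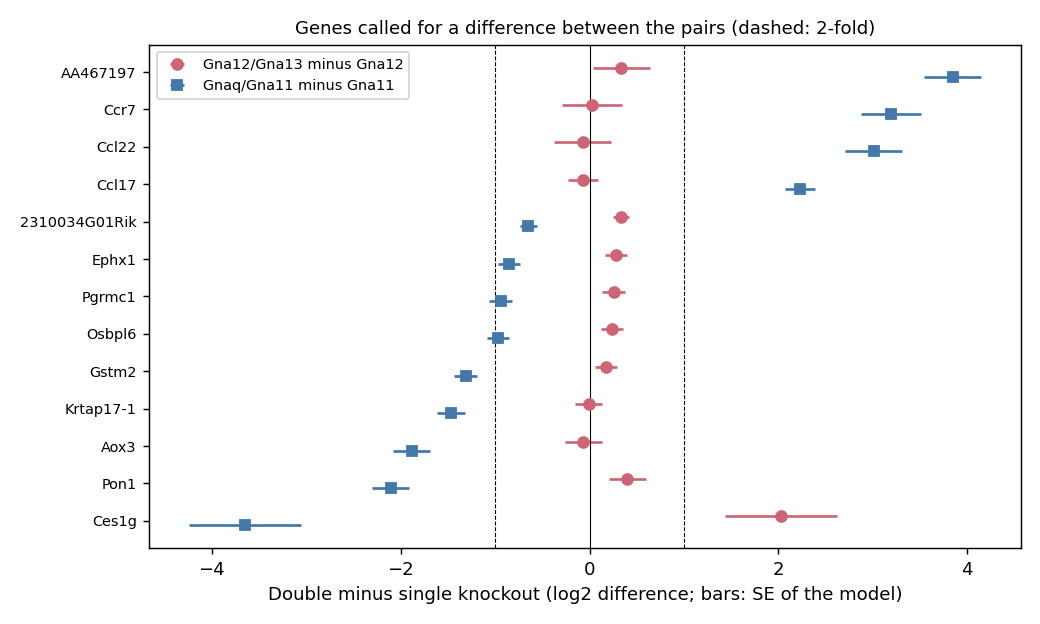
Log2 difference of double minus single knockout (horizontal axis) for the 13 genes that passed for a difference between the pairs, red for Gna12/Gna13 minus Gna12 and blue for Gnaq/Gna11 minus Gna11, with bars for the standard error of the model and dashed lines at 2-fold. Apart from Ces1g at 2.03, the red points lie between -0.07 and 0.40, while the blue points run from -3.65 to 3.84.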

How the data were processed

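The authors deposited log2 expression values, 1 per probe set, which per the submitters' processing notes are RMA summaries. The base 2 is a reading of their range, and the sources used here state no software version or annotation. RMA normalizes arrays to each other, so a shift common to all genes cannot be seen. Total RNA of 10 ng per sample was amplified, per the labels. Of 45101 probe sets 34945 named 1 gene, 34741 of them matched to RefSeq (GRCm38.p6) for their symbol, and the brightest per gene gave 18193 genes.

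A model with 1 mean per genotype was fitted to 12 arrays with limma 3.58.1 in R 4.3.3 (eBayes with trend, 8 residual and 3.19 prior degrees of freedom), and tested on simulated data. Equivalence was tested against 2-fold. Of 335 list entries 323 were measured and 12 are not analysed here. Members and lists were chosen with earlier results of these data known. The rule named the targeted genes, the 10 smallest p-values in each direction among non-overlapping genes with a full name whose brighter group reached the median level on average, members of the receptor and G protein lists, up to 4 of smallest p and 4 of highest level of each other list, Gna13's neighbours, and genes called by an alternative. Alternatives changed the fit, probe set choice, scaling, covariates and arrays.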

Additional observations from a re-analysis of the deposited data

Results flagged for a closer look

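The difference between double and single knockout was tested between the Gna12 pair and the Gnaq/Gna11 pair, which share no arrays, and it passed for 13 genes in limma with Benjamini-Hochberg adjustment (Gna12 pair minus Gnaq/Gna11 pair, log2). For Ccl17 it was -2.30, for Ccl22 -3.08, for Ccr7 -3.17 and for AA467197 -3.51, and all 4 lay near 0 to 0.34 in the Gna12 pair. The positive values were 1.49 for Gstm2, 2.51 for Pon1, 1.13 for Ephx1, 1.82 for Aox3 and 5.68 for Ces1g, genes of detoxification and ester or aldehyde metabolism, and 0.98 for 2310034G01Rik, 1.21 for Osbpl6, 1.46 for Krtap17-1 and 1.19 for Pgrmc1. Ephx1 and 2310034G01Rik also lay higher in every Gna12/Gna13 than in every Gna12 array, by 0.28 and 0.33, beside -0.85 and -0.65 in the other pair. Over 17 alternatives none of the 13 turned its sign. No alternative left out an array of the Gnaq/Gna11 pair, where the larger part of each difference lay, so the steady sign says little. Ccl17, Gstm2 and Pon1 passed under 14 of the 17, and Osbpl6 and Aox3 under 7. The groups of the Gnaq/Gna11 pair did not overlap in pan-leukocyte mean or Gapdh difference. With these as covariates, 1 and 0 genes passed.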

How the results depend on the processing

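The number of called genes was 0 under all 13 alternatives that kept every array or left out only the other pair, and between 0 and 3 as each of the 6 arrays was left out. The genes bounded within 2-fold numbered 30574 when every probe set was tested separately, since more features were tested, and 9758 of the genes at or above the median level; the other alternatives stayed within 1.5 times the 15714. Genes that passed for a difference between the pairs numbered 22 without the intensity trend, 28 with array weights, 35 with the mean of a gene's probe sets, 37 among brighter genes, 1 with the pan-leukocyte covariate and 0 with the Gapdh covariate, and ranged from 0 to 28 over the 6 arrays left out (arrays of the other pair were not left out). The causes were not tested. With the replicate number as a block, 0 genes were called, 15888 were bounded and 16 passed between the pairs. Same-numbered arrays had correlations of -0.01, 0.27 and 0.20 in their deviations, and differently numbered ones -0.285 to 0.06. The values of replicates 2 and 3 were thus the highest. Replicate 1 of the double knockout correlated best with replicate 3 of the single one, at 0.06. The labels' numbers were not taken as pairs in the main fit, but these values do not settle whether replicates were matched. The block cannot move a difference between balanced groups, such as the -0.14 of the brightest Gna13 probe set. Genes at an unadjusted p under 0.05 numbered 1482 with array weights and 1522 over separate probe sets, beside 820. With 3 arrays per group a lone doubled gene of typical precision could not be called, and dim or near-saturated probe sets bound the signal only.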

Other observations

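Among the largest point estimates below 0, each named after its value was seen, Gzme shows what a single array can do. It read 3.29, 3.09 and 10.59 in Gna12 cells and 3.36, 3.18 and 3.83 in Gna12/Gna13 cells, and the difference of -2.20 rests on replicate 3 of the single knockout. Fmod, which encodes a collagen-binding proteoglycan, read 7.31, 6.63 and 6.51 against 4.75, 5.25 and 5.48. It did not overlap and differed by -1.66 (95% interval -2.75 to -0.57). The cardiac troponin gene Tnnt2 read 7.12, 6.78 and 6.55 against 6.44, 4.83 and 4.20, also at -1.66, and the cardiac myosin gene Myh7 read 11.58, 11.58 and 12.16 against 11.39, 10.12 and 10.51, at -1.10. Neither passed. Npy, which encodes neuropeptide Y, read 6.67, 7.58 and 6.75 against 5.63, 11.27 and 9.13, so its double knockout arrays spread on both sides of the single knockout ones. Sncg, the synuclein gamma gene, read 8.72, 7.26 and 7.99 against 8.71, 10.10 and 10.34, with only replicate 1 inside the range of the other group.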
